A study of Homo sapiens with 12 samples.

Results

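Forkhead transcription factors were followed through a knockdown of one of their own family, FOXA1, in human prostate cancer cells. The 10 genes described are FOXA1, FOXA2, FOXO1, FOXO3, FOXO4, FOXP1, FOXM1, FOXK1, FOXJ3 and FOXN3, found by their gene names among the 60106 genes of each table, which hold 50 protein-coding forkhead genes in all. RNA was sequenced from 2 established lines, PC3 and VCaP, each transfected for 72 hours with a non-targeting siRNA (NSI) or an siRNA against FOXA1 (siFOXA1), with 3 libraries per group. PC3, derived from a bone metastasis and grown in RPMI-1640, received 20 nM siRNA, and its libraries came from polyA RNA with the TruSeq stranded mRNA kit. VCaP, derived from a vertebral metastasis and carrying the TMPRSS2-ERG fusion, grew in DMEM, received 40 nM siRNA and was sequenced from total RNA with the TruSeq total RNA kit. Dose, medium, kit and strand setting therefore cannot be told apart from the line.

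Forkhead proteins bind DNA through a shared winged-helix domain and differ in what controls them. FOXA1 and FOXA2 are pioneer factors that open chromatin for other factors, and FOXA1 is a lineage factor of the prostate epithelium. FOXO proteins are held in the cytoplasm by AKT phosphorylation and otherwise switch on genes of cell cycle arrest, stress defence and cell death, FOXM1 drives the genes of mitosis, and FOXP, FOXK and FOXN3 proteins act mostly as repressors.

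Values are CPM, counts scaled to a common library size, and levels of different genes are compared only as CPM per kb of exon. Libraries held 123140099 to 188226483 counts for PC3 and 48187047 to 59839211 for VCaP, and no pair of libraries held identical values. Of 8 prostate luminal markers, 8 reached a mean of 1 CPM in VCaP NSI and 4 in PC3 NSI. ERG stood at a mean of 234 CPM in VCaP NSI and at 0.0297 CPM in PC3 NSI. The summed level of 4 fibroblast markers moved with the knockdown, from 22.7 to 26.8 CPM in PC3 NSI to 41.0 to 45.8 CPM in PC3 siFOXA1 and from 10.5 to 18.9 CPM to 1.20 to 5.41 CPM in VCaP. COL1A1 made up most of the PC3 sum and LUM most of the VCaP NSI sum (10.3 CPM, against 0.670 CPM in siFOXA1), while DCN stayed at or below 0.0836 CPM in all groups. In VCaP the summed luminal markers stood at 5685 to 5944 CPM in NSI and at 4145 to 4901 CPM in siFOXA1. There 4 immune markers, mostly CD14, summed to 0.810 to 1.12 CPM in NSI and 2.38 to 3.18 CPM in siFOXA1, and the endothelial markers, nearly all VWF, to 3.90 to 4.47 CPM and 1.70 to 2.04 CPM. The part of these markers in the results was not tested.

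Promoter sequence was read for the members and for known FOXM1 targets. FOXA1 and its relatives bind the letters TGTTTAC and TATTTAC. The genes of mitosis carry the cell cycle homology region (CHR), TTTGAA, near their start. The RefSeq promoter table (GRCh38.p14) held 18 promoters of 8 members, and FOXA2 and FOXM1 had none in it. In the 250 bases before each start, searched on both strands, TGTTTAC was found in 1 of the 8 members, FOXP1, against 3.66% of all genes in the table. TATTTAC was found in none of them, against 2.95% of genes, and TTTGAA in 2, FOXJ3 and FOXN3, against 16.1%. A gene counted if any of its promoters matched, so members with several promoters had more chances of a match. Of all promoters, 2.98% held TGTTTAC, 2.39% TATTTAC and 13.3% TTTGAA. The windows of FOXA1 (chr14:37595250-37595499, minus strand) and FOXO1 (chr13:40666642-40666891, minus strand) are shown and hold none of the 3 motifs. In VCaP these members had the largest fall and the largest rise at ample counts, and FOXA1 is the siRNA's own target. The FOXP1 window (chr3:71245078-71245327, minus strand) is 1 of its 6 promoters and holds TGTTTAC 187 bases before the start. PLK1 (chr16:23678639-23678888, plus strand) and CDC20 (chr1:43358731-43358980, plus strand), mitotic genes known as FOXM1 targets, are shown for TTTGAA, which lies 24 bases before the start of PLK1 and 60 before that of CDC20. Capitals mark the motif on either strand, and a match is a description of the letters only.
FOXA1: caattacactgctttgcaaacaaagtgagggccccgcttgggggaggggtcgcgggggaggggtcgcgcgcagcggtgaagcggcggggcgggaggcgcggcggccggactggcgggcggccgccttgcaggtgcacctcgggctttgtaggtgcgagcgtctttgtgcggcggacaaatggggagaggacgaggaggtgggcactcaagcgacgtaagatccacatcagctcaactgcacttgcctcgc
FOXO1: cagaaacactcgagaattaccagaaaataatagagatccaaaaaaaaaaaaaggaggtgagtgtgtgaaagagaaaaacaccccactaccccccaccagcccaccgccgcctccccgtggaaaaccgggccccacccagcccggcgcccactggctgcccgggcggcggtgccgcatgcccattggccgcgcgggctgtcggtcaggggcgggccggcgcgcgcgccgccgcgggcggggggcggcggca
FOXP1: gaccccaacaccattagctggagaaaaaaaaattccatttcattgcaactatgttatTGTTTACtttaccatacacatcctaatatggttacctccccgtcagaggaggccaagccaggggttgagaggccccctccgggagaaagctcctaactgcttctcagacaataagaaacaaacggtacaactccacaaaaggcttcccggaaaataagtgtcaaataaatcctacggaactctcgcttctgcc
PLK1: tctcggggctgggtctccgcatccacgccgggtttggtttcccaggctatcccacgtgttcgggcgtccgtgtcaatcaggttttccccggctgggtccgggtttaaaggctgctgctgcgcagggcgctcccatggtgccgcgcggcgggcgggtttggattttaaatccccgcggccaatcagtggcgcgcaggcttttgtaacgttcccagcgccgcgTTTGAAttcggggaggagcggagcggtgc
CDC20: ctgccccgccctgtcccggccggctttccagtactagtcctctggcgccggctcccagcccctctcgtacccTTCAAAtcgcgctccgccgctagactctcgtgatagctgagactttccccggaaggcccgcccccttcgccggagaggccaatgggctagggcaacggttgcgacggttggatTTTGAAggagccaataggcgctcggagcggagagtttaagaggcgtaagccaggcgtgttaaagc

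The first comparison asked which forkhead genes the lines express before any knockdown. In both lines FOXA1 was the most abundant member per kb of exon, at 93.9 ± 10.4 CPM per kb in PC3 NSI and 168 ± 17.5 in VCaP NSI (SD, n = 3). The lowest FOXA1 library stood above every library of the next member, FOXM1, at 17.5 ± 0.189 in PC3 and 33.2 ± 1.63 in VCaP. In PC3 NSI the order then ran through FOXJ3 (16.9 CPM per kb), FOXP1 (15.5), FOXA2 (12.0), FOXO3 (8.95), FOXO4 (5.94), FOXN3 (5.69), FOXK1 (4.22) and FOXO1 (1.09). Neighbours whose PC3 libraries overlapped were FOXM1 and FOXJ3, FOXJ3 and FOXP1, and FOXO4 and FOXN3. In VCaP NSI it ran through FOXO3 (18.9 CPM per kb), FOXP1 (15.9), FOXJ3 (12.0), FOXN3 (10.9), FOXK1 (6.29), FOXO4 (1.99), FOXO1 (0.319) and FOXA2 (0.0436), and of these neighbours FOXJ3 and FOXN3 overlapped. FOXA2 thus ranked 5 of 10 in PC3 and last in VCaP, and FOXO3 ranked 6 and 3.

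**Figure D1:**
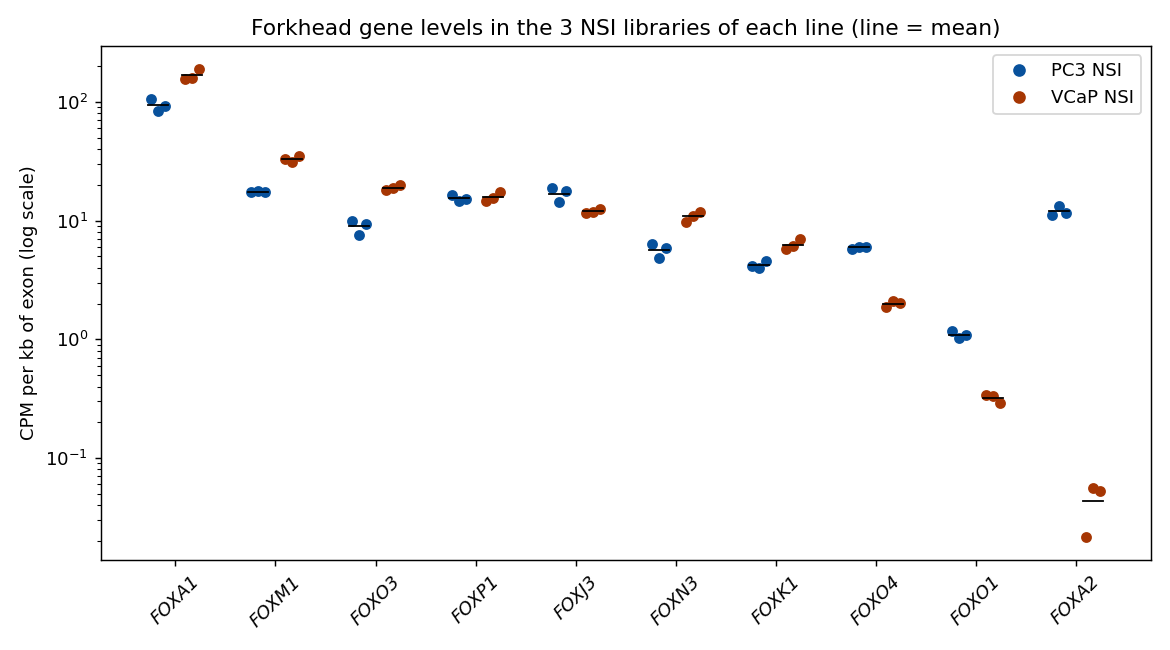
Level of each member in the 3 NSI libraries of PC3 (blue) and VCaP (brown), in CPM per kb of exon on a log axis, with the mean as a line. FOXA1 lies highest in both lines, FOXP1 overlaps between them, and FOXA2 lies at 12.0 CPM per kb in PC3 and at 0.0436 in VCaP.

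Between the lines' NSI libraries, 9 of the 10 members differed by edgeR's quasi-likelihood test with Benjamini-Hochberg adjustment over all genes tested (adjusted p under 0.05), where 86.9% of all genes tested did. FOXA1, FOXO3, FOXM1, FOXK1 and FOXN3 were higher in VCaP (42.7% of all genes), and FOXA2, FOXO1, FOXO4 and FOXJ3 were lower (44.2%). Libraries of the lines did not overlap for the same 9 members (87.5% of all genes). FOXA2 showed the widest gap of the members, at 31.4 ± 2.88 CPM in PC3 NSI and 0.114 ± 0.0496 CPM in VCaP NSI, a log2 difference of -8.05 (SE 0.25). FOXO1 and FOXO4 had log2 differences of -1.78 and -1.58 (SE 0.13 and 0.10), while that of FOXO3 was 1.08 (SE 0.12), so the 3 FOXO genes did not order the lines alike. FOXM1, FOXN3 and FOXA1 were higher in VCaP by 0.92, 0.93 and 0.84 (SE 0.09, 0.11 and 0.10). FOXK1 was higher by 0.57 (SE 0.14). FOXP1 did not pass the test, with 158 to 178 CPM in PC3 and 158 to 186 in VCaP and a log2 difference of 0.04 (95% interval -0.20 to 0.28). FOXJ3 was lower in VCaP by a log2 difference of -0.49 (adjusted p = 0.000304, SE 0.10). With upper-quartile scaling, which moved the median of all genes from -0.03 to 0.27, the FOXJ3 value was -0.18 and no longer passed (adjusted p = 0.0925), while FOXP1 was 0.34 and passed (adjusted p = 0.0095).

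The main question of the design was what changed after the FOXA1 siRNA. In PC3, 4 of the 10 members passed the edgeR test, all lower (FOXA1, FOXO3, FOXP1 and FOXM1), where 27.0% of all genes tested passed, 15.0% higher and 12.1% lower. In VCaP, 8 members passed, where 45.8% of all genes did. FOXA2, FOXO1 and FOXK1 were higher, against 22.5% of genes, and FOXA1, FOXP1, FOXM1, FOXJ3 and FOXN3 lower, against 23.3%. These counts, and all others given without naming a block, come from fits that did not pair the libraries. In PC3 the replicate numbers may pair them, and with the number as a block 9 members passed, where 42.7% of all genes did. The 5 gained were FOXO1 and FOXN3, higher, and FOXO4, FOXK1 and FOXJ3, lower. Libraries did not overlap between NSI and siFOXA1 for 6 members in PC3 (44.6% of all genes) and 9 in VCaP (56.0%). The median log2 fold change of the 10 members was -0.25 in PC3 and -0.19 in VCaP, beside 0.02 in each line over all genes. FOXA1, the siRNA's own target, is included in each of these counts and medians, and its fall was set by the design. The labels do not say whether replicates were separate cultures, so the p-values measure the spread between these libraries, which may be technical.

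**Figure D2:**
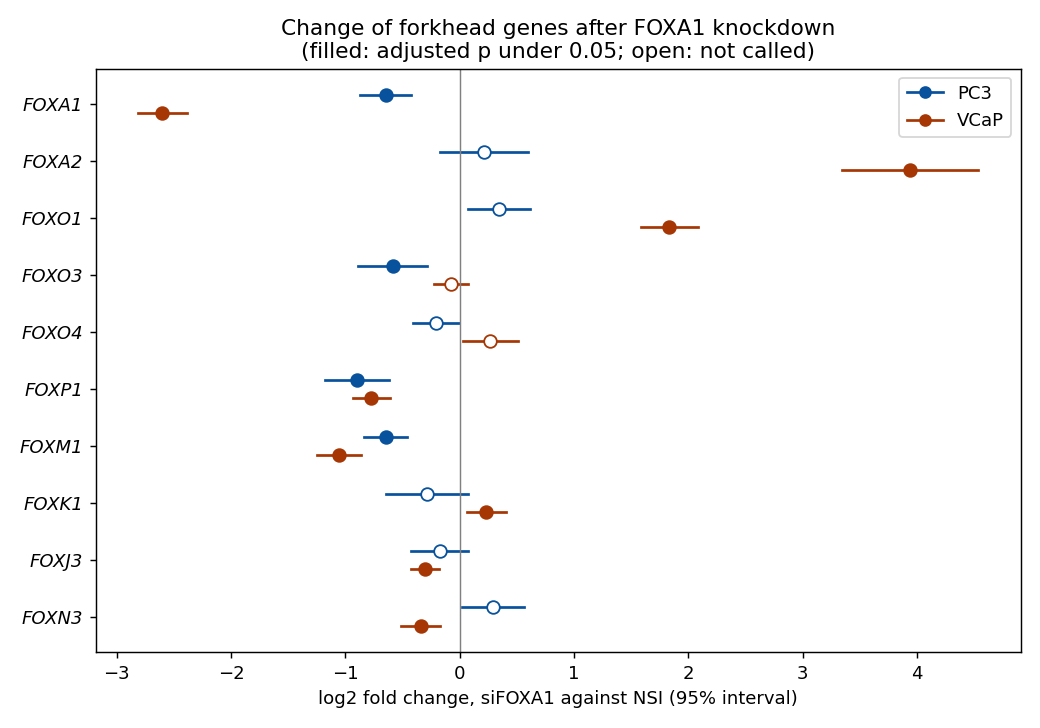
Log2 fold change of each member, siFOXA1 against NSI, with its 95% interval, in PC3 (blue) and VCaP (brown); filled points passed the edgeR test without a block (adjusted p under 0.05). FOXA1 (-2.60), FOXA2 (3.94) and FOXO1 (1.83) in VCaP lie farthest from 0, while FOXP1 lies at like values in both lines.

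**Figure D3:**
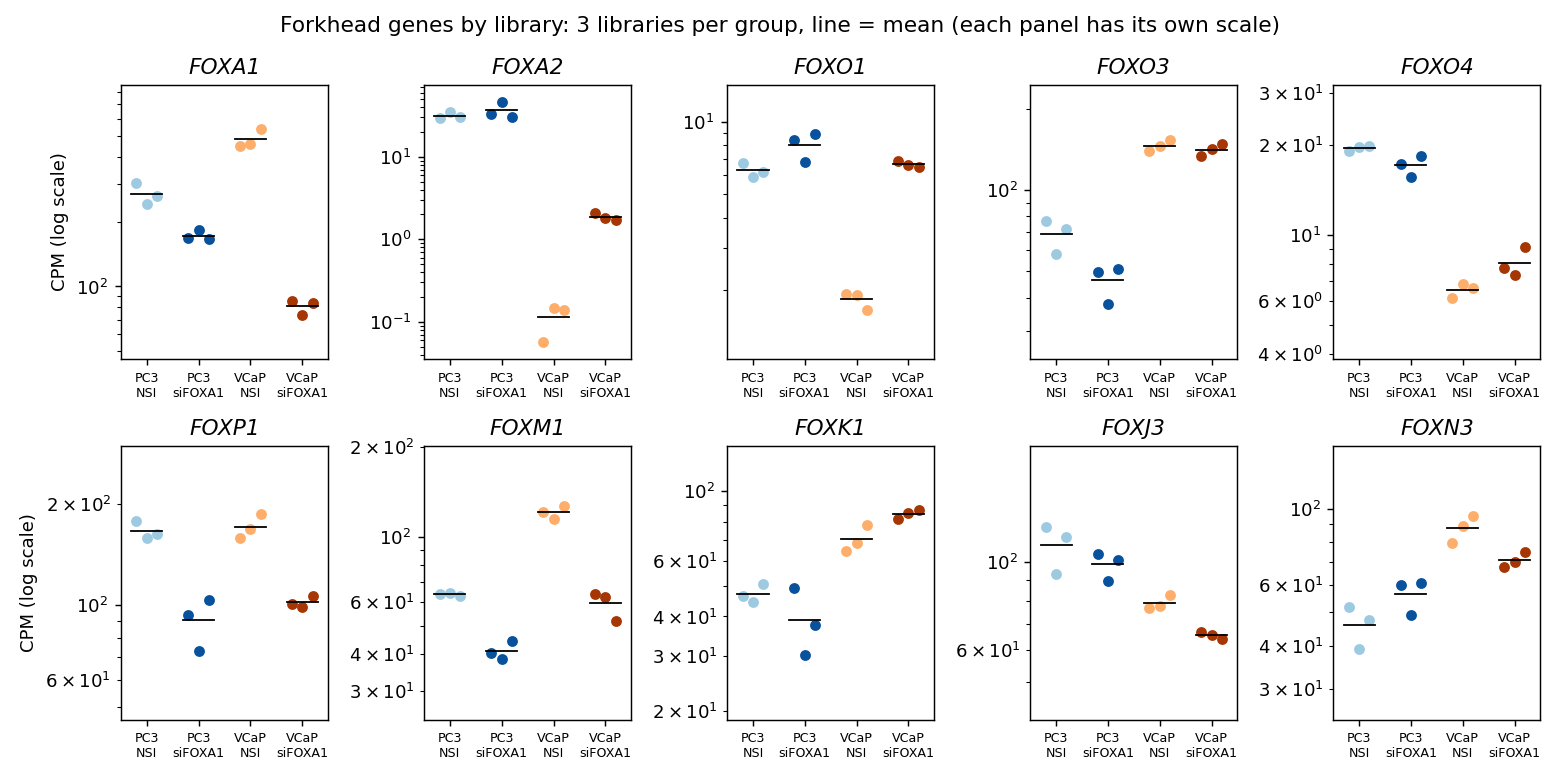
CPM of each member in all 12 libraries, on log axes that differ between panels, with 3 libraries per group and the mean as a line. FOXM1 and FOXP1 libraries of siFOXA1 lie below those of NSI in both lines, and FOXO1 libraries of VCaP siFOXA1 reach the level of PC3.

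FOXA1, the siRNA's target (ENSG00000129514, GRCh37 chr14:38059189-38064239), was lower in every siFOXA1 library than in any NSI library of its line. In PC3 it stood at 301, 242 and 263 CPM under NSI against 168, 183 and 167 CPM in siFOXA1. In VCaP it stood at 448, 458 and 539 CPM under NSI against 85.8, 73.7 and 83.5 CPM in siFOXA1. The gap between the groups was wider in VCaP, where NSI was also higher. The siFOXA1 mean was 64.2% of NSI in PC3 and 16.8% in VCaP, log2 fold changes of -0.65 (adjusted p = 0.00222, SE 0.10) and -2.60 (adjusted p = 1.84e-07, SE 0.09). The knockdown was deeper in VCaP, with a difference between the effects of -1.93 (adjusted p = 3.12e-07, SE 0.15 in the fit of 12 libraries). Left-over FOXA1 in PC3 siFOXA1, at 172 CPM, was above the 81.0 CPM in VCaP siFOXA1, so the lines differ in dose, in depth of knockdown and in level at once. In bulk RNA, fewer cells holding a transcript and less of it per cell cannot be told apart. An exact two-sided permutation test of 3 against 3 libraries gave p = 0.1 in each line, the smallest its 20 arrangements allow.

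FOXA2, the close relative of FOXA1 and a marker of endoderm and of neuroendocrine prostate cancer, was near the detection limit in VCaP NSI and rose after the knockdown there. Its 3 NSI libraries in VCaP held 3, 7.5 and 8 counts (0.0565, 0.146 and 0.138 CPM), and its siFOXA1 libraries 104, 90.8 and 90.3 counts (2.08, 1.81 and 1.73 CPM). The libraries were far apart, with a 16.5-fold higher mean CPM and a fitted log2 fold change of 3.94 (adjusted p = 3.82e-06, SE 0.27). The level reached, 1.87 CPM, was still far below the 31.4 CPM of PC3 NSI. In PC3 FOXA2 stood at 29.2, 34.6 and 30.2 CPM under NSI against 33.2, 46.4 and 30.1 CPM in siFOXA1. Those libraries overlapped, and the log2 fold change of 0.21 (95% interval -0.17 to 0.60) did not pass. Without siFOXA1 replicate 2, the highest library, it was -0.04. The effects differed between the lines by 3.76 (adjusted p = 2.27e-06, SE 0.36). Of the exon bases of FOXA2 (GRCh37 chr20:22561643-22566093), 2.69% lie under a second gene on the same strand, RP4-788L20.5. It stood at 0.0265 CPM in VCaP NSI and 0.175 CPM in VCaP siFOXA1, and at 13.5 and 13.0 CPM in PC3 NSI and siFOXA1.

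The 3 FOXO genes, whose proteins are the nuclear end of the insulin and AKT pathway, responded in different ways. FOXO1 (GRCh37 chr13:41129804-41240734) stood in VCaP at 1.93, 1.90 and 1.65 CPM under NSI against 6.88, 6.59 and 6.50 CPM in siFOXA1. The 3 siFOXA1 libraries lay together and well above NSI, a 3.64-fold higher mean and a log2 fold change of 1.83 (adjusted p = 2e-06, SE 0.11). FOXO1 in VCaP thus came to the level of PC3 NSI, at 6.74, 5.91 and 6.19 CPM. PC3 siFOXA1 libraries, at 8.45, 6.78 and 8.90 CPM, were all above NSI, the nearest by a small margin. There the log2 fold change of 0.35 (SE 0.12) did not pass (adjusted p = 0.0629), but did with the replicate block (0.34, adjusted p = 0.0156), by library size alone, in the fit of 12 libraries and without siFOXA1 replicate 2. The difference between the lines' effects was 1.51 (adjusted p = 1.76e-05, SE 0.18).

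FOXO3 (GRCh37 chr6:108881038-109005977), the most abundant FOXO gene in both lines, fell in PC3. Its libraries stood at 77.1, 58.2 and 72.0 CPM in PC3 NSI and 50.0, 37.9 and 51.1 CPM in siFOXA1, and did not overlap. The log2 fold change was -0.59 (adjusted p = 0.0131, SE 0.13), and without NSI replicate 3 it was -0.56 and missed the threshold (adjusted p = 0.0516). In VCaP, values of 139, 145 and 153 CPM under NSI against 134, 142 and 148 CPM in siFOXA1 overlapped, with a log2 fold change of -0.08 (95% interval -0.22 to 0.07). The effects differed between the lines by 0.53 (adjusted p = 0.0351, SE 0.17), a call lost in 11 of 20 alternatives. Of these, 9 left out 1 library (NSI replicate 1 or 3 or any siFOXA1 replicate of PC3, NSI replicate 1 or 2 or siFOXA1 replicate 2 or 3 of VCaP), with the lowest value, 0.33, without PC3 siFOXA1 replicate 2. FOXO3B, a processed pseudogene of FOXO3, can share its reads, and merging both rows left each of these calls as it was.

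FOXO4 (GRCh37 chrX:70316047-70323385), an X-linked member of the FOXO group, moved little. It stood at 19.2, 19.7 and 19.9 CPM in PC3 NSI and 17.3, 15.7 and 18.4 CPM in siFOXA1, and at 6.15, 6.88 and 6.65 CPM in VCaP NSI and 7.75, 7.37 and 9.12 CPM in siFOXA1. Libraries did not overlap in either line, with siFOXA1 below NSI in PC3 and above it in VCaP. Neither log2 fold change passed, at -0.21 in PC3 (adjusted p = 0.12, SE 0.09) and 0.27 in VCaP (adjusted p = 0.0624, SE 0.11). With the replicate block the PC3 value was -0.21 and passed (adjusted p = 0.0419). The VCaP value passed with the block (0.27, adjusted p = 0.0445), with upper-quartile factors (0.32, adjusted p = 0.0333) and in the fit of 12 libraries (0.30, adjusted p = 0.0393). The difference between the lines, 0.49 (adjusted p = 0.0185, SE 0.14), passed but was lost in 7 of 19 alternatives, 6 of which left out 1 library (NSI replicate 1 or 3 or siFOXA1 replicate 1 or 2 of PC3, NSI replicate 1 or siFOXA1 replicate 3 of VCaP; lowest value 0.36).

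FOXM1 (GRCh37 chr12:2966847-2986321), the forkhead activator of mitotic genes, fell in both lines. In PC3 it stood at 63.9, 64.4 and 63.0 CPM under NSI against 40.3, 38.5 and 44.3 CPM in siFOXA1. In VCaP it stood at 121, 115 and 127 CPM under NSI against 64.1, 62.5 and 51.9 CPM in siFOXA1. No siFOXA1 library reached the lowest NSI library of its line, and VCaP siFOXA1 came near the level of PC3 NSI. The log2 fold changes were -0.65 in PC3 (adjusted p = 0.000888, SE 0.08) and -1.06 in VCaP (adjusted p = 1.16e-05, SE 0.09). The VCaP effect minus the PC3 effect was -0.39 (adjusted p = 0.0405, SE 0.13), and this call was lost in 6 of 19 alternatives. They were the fit with no filter on low counts and those without VCaP NSI replicate 1 or 3, VCaP siFOXA1 replicate 2 or 3, or PC3 siFOXA1 replicate 3, where the value ran down to -0.30 (adjusted p = 0.103).

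FOXP1 (GRCh37 chr3:71001968-71633144), a repressor that is often altered in prostate tumours, fell by like amounts in both lines. In PC3 it stood at 178, 158 and 163 CPM under NSI against 93.7, 73.1 and 104 CPM in siFOXA1. In VCaP it stood at 158, 168 and 186 CPM under NSI against 101, 98.9 and 106 CPM in siFOXA1. The groups were wide apart in each line, and the 2 lines overlapped in NSI and in siFOXA1. The log2 fold changes were -0.89 in PC3 (adjusted p = 0.00128, SE 0.12) and -0.77 in VCaP (adjusted p = 2.62e-05, SE 0.07), and their difference of 0.14 (95% interval -0.20 to 0.48) did not pass. In PC3, where FOXA1 fell less deeply, FOXP1 had the largest fall of the 10 members. The forkhead motif shown above lies before 1 of its RefSeq starts, and which start was used in these cells was not analysed here.

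The remaining members changed by small amounts. FOXN3 (GRCh37 chr14:89622516-90085493), a repressor of cell cycle genes, stood at 51.8, 39.0 and 47.4 CPM in PC3 NSI and 59.8, 49.2 and 61.0 CPM in siFOXA1. In VCaP it stood at 79.6, 89.3 and 95.2 CPM under NSI against 67.9, 70.0 and 75.0 CPM in siFOXA1. The groups overlapped in PC3 and not in VCaP. The log2 fold change was 0.29 in PC3 (adjusted p = 0.102, SE 0.12), which passed with the replicate block (0.29, adjusted p = 0.00381), and -0.34 in VCaP (adjusted p = 0.0048, SE 0.07). The lines differed by -0.61 (adjusted p = 0.0123, SE 0.16), a call that held in each of 19 alternatives. A lincRNA on the other strand, RP11-681H18.2, covers 10.3% of the FOXN3 exon bases, and since PC3 counts ignored strand its reads there cannot be told apart from those of FOXN3. It was listed at 3.63 CPM in PC3 NSI and 3.60 CPM in PC3 siFOXA1. On the same strand, RP11-33N16.3 covers 2.21% of the FOXN3 exon bases. It stood at 2.16 and 2.51 CPM in PC3 NSI and siFOXA1, and at 4.34 and 7.18 CPM in VCaP.

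FOXK1 (GRCh37 chr7:4721940-4811074), which represses autophagy genes and promotes glycolysis, stood at 46.4, 44.5 and 50.7 CPM in PC3 NSI and 49.3, 30.1 and 37.6 CPM in siFOXA1. In VCaP it stood at 64.5, 68.2 and 78.1 CPM under NSI against 81.4, 85.0 and 87.1 CPM in siFOXA1. Its siFOXA1 libraries were spread widely in PC3 and lay just above NSI in VCaP. The log2 fold change in PC3 was -0.29 (adjusted p = 0.206, SE 0.16), and passed at -0.31 with the replicate block (adjusted p = 0.0436) and at -0.49 without siFOXA1 replicate 1 (adjusted p = 0.041). In VCaP it was 0.23 (adjusted p = 0.0283, SE 0.07), a call lost without NSI replicate 1 or 2, without siFOXA1 replicate 2 or 3, and in the fit of 12 libraries, where adjusted p was 0.178. The difference between the lines, 0.54 (SE 0.19), did not pass (adjusted p = 0.0587), but did with the replicate block (0.57, adjusted p = 0.00869), with no filter on low counts (0.53, adjusted p = 0.0228) and without PC3 siFOXA1 replicate 1 (0.69, adjusted p = 0.00916).

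FOXJ3 (GRCh37 chr1:42642210-42801548), known for its role in muscle and in spermatogenesis, was lower in VCaP siFOXA1. Its libraries stood at 76.5, 77.4 and 82.8 CPM in VCaP NSI and 66.7, 65.4 and 64.1 CPM in siFOXA1, and at 123, 93.4 and 116 CPM in PC3 NSI and 105, 89.4 and 101 CPM in siFOXA1. The VCaP groups did not overlap and the PC3 groups did. The log2 fold change was -0.30 in VCaP (adjusted p = 0.00178, SE 0.06) and -0.18 in PC3 (adjusted p = 0.267, SE 0.11), or -0.17 with the replicate block (adjusted p = 0.0468) and -0.27 without NSI replicate 2 (adjusted p = 0.0465). In the fit of 12 libraries neither FOXJ3 (adjusted p = 0.0575) nor FOXN3 (adjusted p = 0.0545) passed in VCaP.

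Between the lines, 7 of the 10 members responded differently by the interaction term (the VCaP effect minus the PC3 effect, edgeR, adjusted p under 0.05), where 22.2% of all genes tested did. The difference was positive for FOXA2, FOXO1, FOXO3 and FOXO4 and negative for FOXA1, FOXM1 and FOXN3. The 7 include FOXA1, the siRNA's own target, whose knockdown was deeper in VCaP. It had the same call in all 19 alternatives for FOXA1, FOXA2, FOXO1 and FOXN3. For FOXO3, FOXO4 and FOXM1 the call rested on the setting as given above, and the count was 4 without VCaP NSI replicate 1 or VCaP siFOXA1 replicate 3. Over all genes 6760 passed, against 5491 and 5709 without these libraries, in that order.

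The make-up of the forkhead transcripts differed after the knockdown. Summed over the 50 protein-coding forkhead genes, the level per kb was 253 ± 14.9 CPM per kb in PC3 NSI and 198 ± 1.34 in siFOXA1, and 319 ± 27.0 in VCaP NSI and 159 ± 4.32 in siFOXA1 (SD, n = 3). FOXA1 supplied 39.3, 35.6 and 36.3% of it in PC3 NSI and 29.4, 32.2 and 29.6% in siFOXA1. In VCaP, FOXA1 supplied 51.9, 52.4 and 53.8% in NSI and 19.0, 16.5 and 17.8% in siFOXA1. FOXA1 thus had a lower share in every siFOXA1 library of its line. Most of the lower total in each line was FOXA1 itself, the siRNA's target. Its level went from 93.9 to 60.2 CPM per kb in PC3 and from 168 to 28.3 in VCaP. In VCaP siFOXA1, FOXA1 at 25.7 to 30.0 CPM per kb lay below FOXK2, the paralog of FOXK1 and not one of the 10 members, at 34.6 to 41.0. FOXK2 stood at 29.6 to 37.2 CPM per kb in VCaP NSI, and its log2 fold change of 0.16 did not pass (adjusted p = 0.204). Of the members, FOXO3 at 18.3 and FOXM1 at 16.3 CPM per kb came next. In PC3 siFOXA1, FOXA1 at 60.2 CPM per kb stayed above FOXK2 at 21.3, FOXL1 at 16.6, FOXJ3 at 15.0 and FOXA2 at 14.0. The 10 members, FOXA1 included, made up 71.8% of the forkhead level in PC3 NSI and 83.9% in VCaP NSI, and 66.6% and 64.7% in siFOXA1.

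Of the 40 other protein-coding forkhead genes, 24 were tested in PC3, where 3 were higher (FOXD1, FOXF1, FOXN1) and 2 lower (FOXP4, FOXQ1), where 27.0% of all genes tested passed. In VCaP, 21 were tested, 7 were higher and 4 lower (FOXP4, FOXQ1, FOXF2, FOXB2), where 45.8% of all genes did. Of the 7 that were higher, 4 (FOXD4L2, FOXD4L4, FOXD4L5, FOXD4L6) are near-identical copies among which reads may be split, so their values are uncertain. FOXP4, the paralog of FOXP1, fell with it. It stood at 30.8, 29.0 and 31.8 CPM in PC3 NSI and 23.8, 22.5 and 24.0 CPM in siFOXA1, and at 27.1, 23.9 and 29.5 CPM in VCaP NSI and 15.3, 16.6 and 17.4 CPM in siFOXA1. No groups overlapped, with log2 fold changes of -0.39 (PC3, adjusted p = 0.00783) and -0.74 (VCaP, adjusted p = 0.000112). FOXO6, a further FOXO gene, went from 22.5, 15 and 22 counts in VCaP NSI to 83, 86.5 and 58 counts in siFOXA1, a log2 fold change of 2.00 (adjusted p = 0.000122, SE 0.24). FOXQ1 fell in both lines, from 2.22 to 0.828 CPM in PC3 and from 0.409 to 0.124 CPM in VCaP. FOXN2, the relative of FOXN3, rose in VCaP from 33.6 to 39.8 CPM (log2 fold change 0.21, adjusted p = 0.0128), where FOXN3 fell. This call was lost without VCaP NSI replicate 1 and in the fit of 12 libraries (adjusted p = 0.307). FOXC1 was 26.0 CPM in PC3 NSI and 25.5 in siFOXA1, and rose in VCaP from 0.155 to 0.325 CPM, a level of 5.17 to 18 counts, and this call was lost by DESeq2 and without NSI replicate 1 or 3 or siFOXA1 replicate 1 or 2. FOXD1 rose in PC3 from 4.74 to 6.60 CPM and FOXN1 from 0.936 to 1.45 CPM. The FOXD1 call was lost without NSI replicate 1 or 2 or any siFOXA1 replicate, and that of FOXN1 without NSI replicate 1 or siFOXA1 replicate 1 or 3 and in the fit of 12 libraries (adjusted p = 0.0648).

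Genes that work with each member were taken from 6 lists. FOXM1's known targets, 27 genes of mitosis, were lower almost throughout. In PC3, 26 were lower and 0 higher, and in VCaP 24 were lower and 0 higher, beside 12.1% and 23.3% of all genes called lower. Their median log2 fold change was -0.78 in PC3 and -0.83 in VCaP, beside 0.02 for all genes in each line. The exceptions were STMN1, a microtubule destabiliser, in PC3 (-0.27, adjusted p = 0.225), and the kinetochore and spindle genes CENPE (-0.25, adjusted p = 0.578), CENPF (-0.57, adjusted p = 0.0719) and KIF20B (-0.06, adjusted p = 0.814) in VCaP. AURKA, the mitotic kinase of the centrosome, fell from 69.1 ± 0.501 to 32.9 ± 1.28 CPM in PC3, and KIF20A, a kinesin of cytokinesis, from 34.1 ± 1.25 to 15.9 ± 1.25 CPM. AURKA and KIF20A fell in VCaP too, with log2 fold changes of -1.01 and -1.05 (adjusted p = 5.15e-05 and 0.000268). PLK1, the polo-like kinase whose promoter is shown above, fell from 59.6 ± 1.40 to 30.3 ± 0.785 CPM in PC3 and from 31.3 ± 0.807 to 14.1 ± 2.98 CPM in VCaP. CDC20, which activates the anaphase-promoting complex, fell in VCaP from 52.0 ± 4.84 to 23.7 ± 4.78 CPM, and CCNA2, cyclin A, from 87.2 ± 3.11 to 41.3 ± 8.63 CPM. CDC20 and CCNA2 fell in PC3 as well, with log2 fold changes of -0.91 and -0.80 (adjusted p = 0.000561 and 0.000465). Of 23 of these targets with a RefSeq promoter, 12 (52.2%) held TTTGAA in the 250 bases before a start, beside 16.1% of all genes in the table. In BUB1B, CCNB2, CDC25C, CENPA, CKS1B, HMMR, PLK1 and PRC1 the nearest match lay 13 to 25 bases before the start. In CDC20, CCNF, ECT2 and TOP2A it lay farther off, at 60, 80, 110 and 146 bases. How often a match lies this near the start over all genes was not counted.

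FOXM1's partners and activators, 19 genes of the MuvB, E2F and cyclin-dependent kinase groups, were 6 lower and 1 higher in PC3 and 13 lower and 0 higher in VCaP, with medians of -0.22 and -0.41. That is 31.6% lower in PC3 and 68.4% in VCaP, beside 12.1% and 23.3% of all genes tested. The share higher was 5.26% in PC3 and 0% in VCaP, beside 15.0% and 22.5%. The PC3 count of 7 was 12 with the replicate block, 3 without siFOXA1 replicate 1, and 4 without NSI replicate 3 or siFOXA1 replicate 3. Over all genes the 7149 calls became 11297 with the block, and 3945, 4602 and 5068 without those libraries, in that order. MYBL2, the B-MYB factor that binds with FOXM1, fell from 54.8 ± 15.9 to 32.0 ± 2.14 CPM in PC3, a call lost without siFOXA1 replicate 1, and from 116 ± 9.86 to 54.3 ± 9.64 CPM in VCaP. CDK1, the mitotic kinase, fell in PC3 from 61.4 ± 2.59 to 41.2 ± 2.37 CPM, and also in VCaP (log2 fold change -0.55, adjusted p = 0.0042). E2F2 and CDK2, which act at entry to S phase, fell in VCaP, from 27.4 ± 2.33 to 11.4 ± 1.10 CPM and from 43.1 ± 3.38 to 23.7 ± 0.925 CPM. CCND3, cyclin D3, went against the list in PC3, where it rose from 20.3 ± 1.03 to 37.0 ± 1.77 CPM, and fell in VCaP (log2 fold change -0.41, adjusted p = 0.0167).

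**Figure D4:**
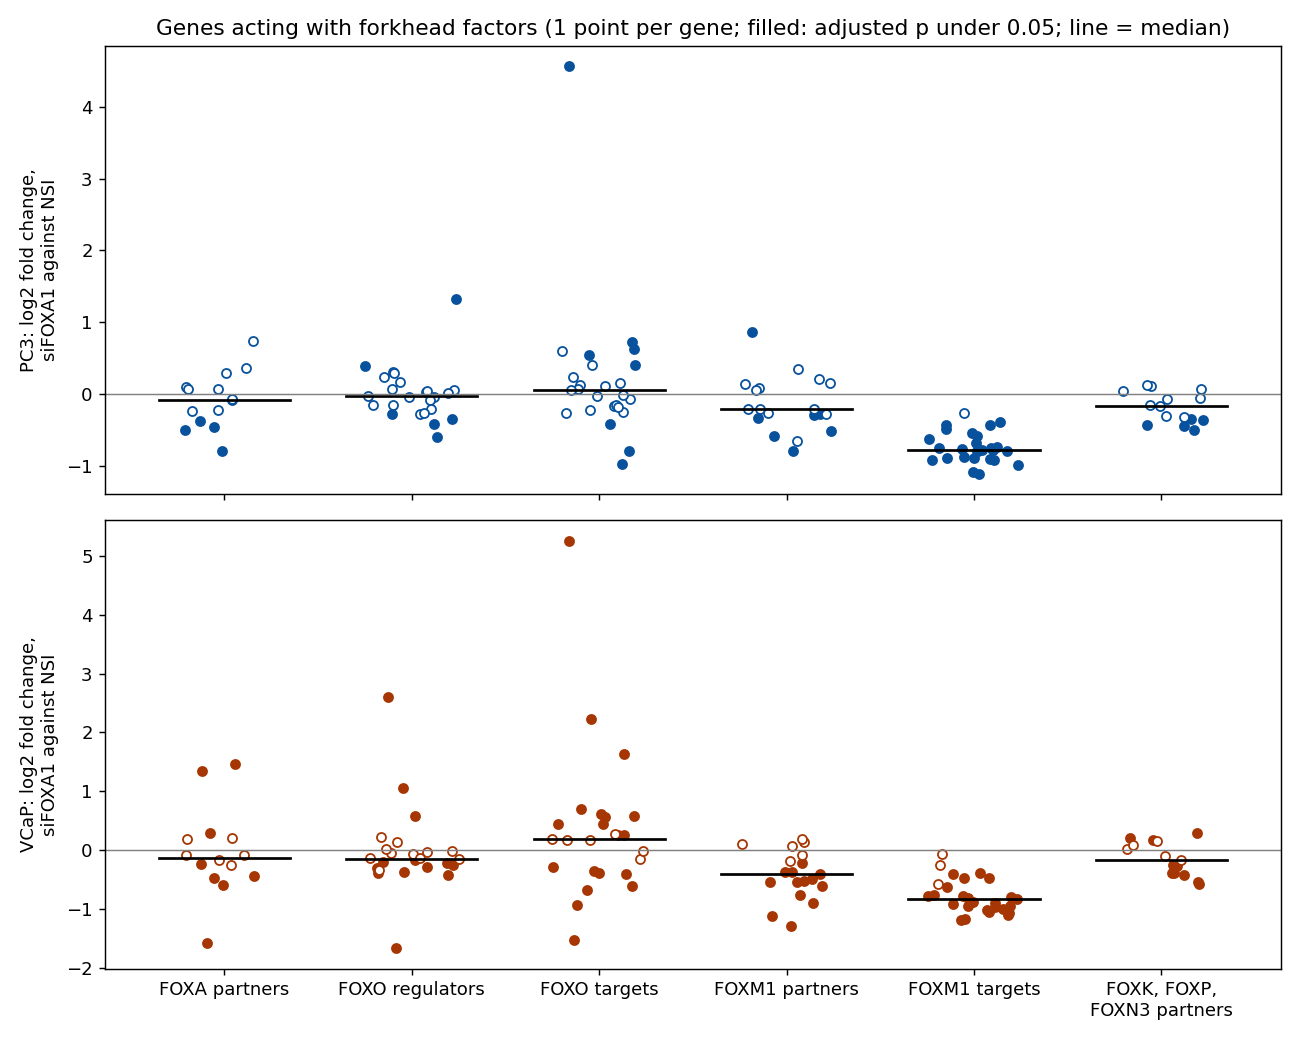
Log2 fold change, siFOXA1 against NSI, of each tested gene in the 6 lists, in PC3 (upper) and VCaP (lower); filled points passed the edgeR test and lines are list medians. The FOXM1 targets lie almost wholly below 0 in both lines (medians -0.78 and -0.83), while the FOXO targets spread to both sides.

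The known FOXO targets moved to both sides. Of 25 tested of 26, 5 were higher and 3 lower in PC3, and 11 higher and 8 lower in VCaP, with medians of 0.06 and 0.19. The share lower in PC3, 12%, was that of all genes (12.1%), and the share higher was 20% beside 15.0%. In VCaP 44% were higher and 32% lower, beside 22.5% and 23.3% of all genes. FBXO32, the atrogin-1 ubiquitin ligase that is a textbook FOXO target, rose in VCaP from 5.27 ± 0.648 to 207 ± 9.25 CPM (log2 fold change 5.26, SE 0.10, adjusted p = 8.89e-09) and was at 10.5 and 11.8 CPM in PC3. CDKN1A, the p21 inhibitor of the cell cycle, rose in VCaP from 33.2 ± 7.64 to 105 ± 15.5 CPM. SESN3, a sestrin that restrains growth signalling, fell in VCaP from 1521 ± 238 to 535 ± 61.6 CPM, and rose in PC3 (log2 fold change 0.41, adjusted p = 0.0192). TNFSF10, the death ligand TRAIL, rose in PC3 from 1.47 ± 0.0444 to 35.2 ± 2.50 CPM (log2 fold change 4.57, SE 0.11, adjusted p = 5.01e-07) and by 0.55 in VCaP. MXI1, a MYC antagonist, fell in PC3 from 73.8 ± 10.8 to 37.7 ± 3.01 CPM. BBC3, the death factor PUMA, fell in PC3 from 8.56 ± 2.36 to 4.96 ± 0.930 CPM, a call lost without NSI replicate 2 or 3 or siFOXA1 replicate 1 or 3, and rose in VCaP (0.44, adjusted p = 0.0247). The count of 8 in PC3 was 5 without NSI replicate 3 or siFOXA1 replicate 1, where calls over all genes went from 7149 to 4602 and 3945. The genes with the largest changes were thus different ones in PC3 and VCaP, and many of them answer to other factors as well as FOXO.

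Among 24 genes that act on FOXO proteins, 4 were lower and 2 higher in PC3 and 10 lower and 3 higher in VCaP, with medians of -0.03 and -0.15. In PC3 16.7% were lower and 8.33% higher, beside 12.1% and 15.0% of all genes, and in VCaP 41.7% were lower and 12.5% higher, beside 23.3% and 22.5%. The PC3 count of 6 was 13 with the replicate block, 10 by DESeq2, and 2 without NSI replicate 3, siFOXA1 replicate 1 or siFOXA1 replicate 3. Calls over all genes moved too, from 7149 to 11297 with the block and 8356 by DESeq2. They were 4602, 3945 and 5068 without those libraries, in that order. SGK1, a kinase that phosphorylates FOXO proteins as AKT does, rose in both lines, from 5.44 ± 0.827 to 13.7 ± 1.36 CPM in PC3 and from 2.11 ± 0.288 to 13.1 ± 0.704 CPM in VCaP. AKT1, the main FOXO kinase, fell in VCaP from 156 ± 9.54 to 50.2 ± 5.20 CPM and had a log2 fold change of -0.08 (adjusted p = 0.491) in PC3. PIK3R1, the regulatory subunit of PI3K, rose in VCaP from 65.9 ± 3.93 to 141 ± 9.62 CPM. YWHAE, a 14-3-3 protein that holds FOXO in the cytoplasm, fell in VCaP (log2 fold change -0.26, adjusted p = 0.0115). It also fell in PC3, from 380 ± 20.4 to 251 ± 19.9 CPM. PRMT1, a methyltransferase that shields FOXO1 from AKT, fell there from 252 ± 39.7 to 189 ± 15.2 CPM, a call lost by library size alone (adjusted p = 0.0692) and without NSI replicate 2 or 3 or siFOXA1 replicate 1 or 3.

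FOXA1's partners, 14 transcription factors, co-repressors and chromatin enzymes, were 4 lower and 0 higher in PC3 and 5 lower and 3 higher in VCaP, with medians of -0.08 and -0.13. In PC3 28.6% were called, all lower, beside 27.0% of all genes called and 12.1% lower, and in VCaP 35.7% were lower and 21.4% higher, beside 23.3% and 22.5%. The PC3 count of 4 was 8 with the replicate block, and 2 without siFOXA1 replicate 1, where calls over all genes went from 7149 to 11297 and 3945. TLE3, a Groucho co-repressor that binds FOXA1, fell in both lines, from 65.1 ± 3.79 to 37.9 ± 2.16 CPM in PC3 and from 273 ± 3.48 to 93.0 ± 7.32 CPM in VCaP. TLE1, its relative, rose in VCaP from 13.0 ± 1.11 to 33.8 ± 4.11 CPM. GRHL2, a grainyhead factor of epithelial cells, fell in VCaP from 328 ± 24.2 to 222 ± 15.6 CPM. In PC3 the histone demethylase KDM1A fell from 148 ± 12.5 to 108 ± 1.14 CPM, and HOXB13, the homeobox partner of FOXA1 in prostate, from 357 ± 7.04 to 277 ± 16.1 CPM, a call lost without siFOXA1 replicate 1. HOXB13 also fell in VCaP (log2 fold change -0.24, adjusted p = 0.0235), while KDM1A did not pass there (-0.16, adjusted p = 0.0611).

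The 15 partners of FOXK, FOXP and FOXN3 proteins were 5 lower and 0 higher in PC3, and 7 lower and 3 higher in VCaP, with a median of -0.17 in each line. In PC3 33.3% were lower, beside 12.1% of all genes, and in VCaP 46.7% were lower and 20% higher, beside 23.3% and 22.5%. The PC3 count of 5 was 8 with the replicate block, 3 without NSI replicate 1, and 1 without NSI replicate 3 or siFOXA1 replicate 1. Over all genes the 7149 calls became 11297 with the block, and 5766, 4602 and 3945 without those libraries, in that order. HDAC1, a histone deacetylase, fell in VCaP (log2 fold change -0.38, adjusted p = 0.00059). It also fell in PC3, from 221 ± 4.18 to 164 ± 7.47 CPM. GATAD2B, of the NuRD repressor complex with which FOXP proteins act, fell there from 70.0 ± 8.73 to 49.9 ± 8.25 CPM, a call lost without NSI replicate 1 or 3 or siFOXA1 replicate 1. HCFC1, a chromatin cofactor, fell in VCaP from 185 ± 10.5 to 127 ± 17.2 CPM and in PC3 from 160 ± 22.2 to 119 ± 14.6 CPM. The PC3 call of HCFC1 was lost by library size alone (adjusted p = 0.0525), without NSI replicate 1 or 3 and without siFOXA1 replicate 1 or 2. CTBP1, a co-repressor bound by FOXP proteins, and MTA2, of NuRD, fell in VCaP from 179 ± 8.27 to 125 ± 6.14 CPM and from 118 ± 8.13 to 90.4 ± 2.34 CPM. MTA2 also fell in PC3 (log2 fold change -0.37, adjusted p = 0.0196), while CTBP1 did not pass there (-0.30, adjusted p = 0.125).

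Genes whose level followed a member most closely were sought over the 12 libraries after each line's mean was removed, among 9870 genes of at least 5 CPM in each line. Since these libraries share the same knockdown, the values describe likeness and carry no test. For FOXA1 they included NIPA2 (Pearson r 0.994), a magnesium transporter, HNRNPF (0.991), an RNA-binding protein, FGFRL1 (0.990) and SPG21 (0.989). For FOXM1 they were CDCA8 (0.993), a subunit of the chromosomal passenger complex, AC068831.18 (0.989), CSTF1 (0.988), PRC1 (0.988), a midzone protein, and CCNF (0.986), cyclin F. PRC1 and CCNF were also in the list of FOXM1 targets. FOXM1 followed FOXA1 with r = 0.927, FOXP1 with 0.771 and FOXJ3 with 0.736, ranks of 374, 1438 and 1659 among the 9870 genes. Many genes thus followed FOXA1 more closely than these members. FOXN3 (0.433) and FOXO3 (0.277) did so less, while FOXK1 (-0.309) and FOXO4 (-0.536) ran the other way.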

How the data were processed

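Per the file headers, the authors made the deposited expected counts (estimated counts per gene, not normalized) with featureCounts 2.0.0 on GRCh37 and the GENCODE v28lift37 basic annotation. Fragments with several places or genes were split between them, so 54.8 to 75.2% of nonzero values were not whole. Per the file headers, PC3 counts ignored strand and VCaP counts used it. STAR 2.7.3a and Subread 2.0.0 stand in the submitters' processing notes.

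Counts were rounded and fitted with edgeR 4.0.16 in R 4.3.3 (TMM factors, filterByExpr, quasi-likelihood test, two-sided, Benjamini-Hochberg over all genes tested, threshold 0.05). PC3 and VCaP were fitted apart, on 6 libraries each, and the interaction and the comparison of lines on all 12. A standard error is the log2 fold change divided by the square root of F, and CPM uses the TMM factors of the 12 libraries. The fitting script was tested on simulated data. Replicates differed by more than sampling noise (chi-square per degree of freedom 9.83 to 142), and all were kept. Biological coefficients of variation were 15% (PC3) and 9.9% (VCaP). Deviations of same-numbered libraries correlated at 0.207 to 0.57 in PC3, all above 0.1, and those of differently numbered ones at -0.536 to 0.345. The ranges overlap and no label says what a number shares, so pairing there is only a hint from the data. The main fits did not use it, and results with the replicate block are given beside them. In VCaP same-numbered libraries correlated at 0.038 to 0.35 and were not taken as paired. Alternatives were other scalings, no filter, DESeq2 1.42.0, the replicate block, a fit of 12 libraries, protein-coding genes alone and leaving out each library; merging FOXO3 with FOXO3B was added after seeing the data.

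The members and the 6 gene lists were chosen with earlier results of these data known. Named were all 10 members, other forkhead genes called in a line that reached a group mean of 1 CPM, the 3 called genes of each list with the largest change in each line at 5 CPM or more, and the 5 genes most like FOXA1 and FOXM1. Other genes named (STMN1, CENPE, CENPF, KIF20B and the small counts of forkhead genes) were chosen after their values were seen. Promoters are from RefSeq on GRCh38.p14 and were not converted to GRCh37. A few further genes are not reported here and were left out of the lists. Protein sequences and splicing were not analysed here.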

Additional observations from a re-analysis of the deposited data

Results flagged for a closer look

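The effect of siFOXA1 differed between VCaP and PC3 by the interaction term of the fit of 12 libraries (VCaP effect minus PC3 effect on the log2 scale, edgeR, adjusted p under 0.05), and line cannot be told apart from kit, dose, medium and strand setting. Among the members the difference was 3.76 for FOXA2, 1.51 for FOXO1, 0.53 for FOXO3 and 0.49 for FOXO4, and -1.93 for FOXA1, -0.61 for FOXN3 and -0.39 for FOXM1. Of the other forkhead genes it was 1.16 for FOXC1 and -0.75 for FOXD1.

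Of 125 list genes tested, 41 (32.8%) had a difference that passed, 18 positive and 23 negative, beside 22.2% of all genes. Among the 17 of these named in the text, positive differences were those of FBXO32 (5.13), CDKN1A (1.42), BBC3 (1.26) and MXI1 (0.98) of the FOXO targets, SGK1 (1.30), PIK3R1 (1.02) and YWHAE (0.37) of the FOXO regulators, TLE1 (1.28) and GATAD2B (0.68). It was negative for TNFSF10 (-3.99) and SESN3 (-1.93) of the FOXO targets, AKT1 (-1.57), GRHL2 (-1.33) and TLE3 (-0.77). It was also negative for CCND3 (-1.24), CDK2 (-0.67) and E2F2 (-0.62) of the FOXM1 partners. Mean GRHL2 in PC3 was only 0.161 CPM without the knockdown and 0.269 CPM with it (log2 fold change 0.73, adjusted p = 0.152). For E2F2 the PC3 means were 0.465 CPM without it and 0.297 CPM with it (-0.66, adjusted p = 0.0736). The E2F2 difference passed narrowly (adjusted p = 0.0499). Both differences thus set a fall in VCaP against low PC3 levels whose change did not pass. Over all list genes, 5 passed in both lines with opposite signs: SESN3, CCND3 and BBC3, and also IRS2 and CITED2 of the FOXO targets, which were picked out after their values were seen.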

How the results depend on the processing

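Of the values of the 10 members under alternatives, 267 kept their direction and call when 1 library was left out, 25 lost the call, 4 gained it and 4 changed sign; under the other settings 261 kept both, 8 lost the call, 14 gained it and 1 changed sign. The number of members called was 4 in PC3 (3 to 5 without 1 library; 9 with the replicate block), 8 in VCaP (7 to 8 without 1 library; 6 to 9 otherwise, the replicate block included), 9 between lines (9 without 1 library; 9 to 10 otherwise) and 7 in the interaction (4 to 7 without 1 library; 5 to 8 otherwise). None of the values that changed sign passed. FOXA2 in PC3 ran from -0.040 to 0.31 over the fits without 1 library, below 0 without siFOXA1 replicate 2, and FOXC1 in PC3 from -0.12 to 0.01, above 0 without NSI replicate 1 (0.0026) or 3 (0.0090) and by library size alone (0.024). In the interaction FOXP1 ran from -0.070 (without PC3 siFOXA1 replicate 2) to 0.20 and FOXN1 from -0.76 to 0.36 (without VCaP NSI replicate 1). Between lines FOXP1 ran from -0.053 to 0.085, below 0 without PC3 NSI replicate 2 (-0.0093) or VCaP NSI replicate 3, and was -0.10 with no filter, and FOXP4 was 0.12 by upper quartile and 0.036 with protein-coding genes alone. FOXP1 between lines passed with upper-quartile factors (0.34, adjusted p = 0.0095) and with protein-coding genes alone (0.26, adjusted p = 0.0493). The cause was not tested.

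Over all genes, 7149 were called in PC3, 11297 with the replicate block, 4602 without NSI replicate 3 and 3945 without siFOXA1 replicate 1. In PC3 3955 were higher and 3194 lower, against 4583 and 2551 by library size alone and 3128 and 3535 without siFOXA1 replicate 2. By library size alone the share of higher calls in the interaction moved by -10.2 points, to 2643 higher and 3880 lower. Depth limits FOXA2, FOXC1, FOXQ1 and FOXO6 in VCaP, which rest on few counts per NSI library. Low levels also limit FOXF2 and FOXB2 in VCaP, with means from 0.523 to 0.250 CPM and from 0.435 to 0.125 CPM. The same holds for FOXF1 in PC3, from 0.0861 to 0.212 CPM.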
